A study of Mus musculus with 12 samples.

Results

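The NRF2 antioxidant genes are described here as 8 genes chosen by symbol, with earlier results of these data known: Nfe2l2, Keap1, Nqo1, Gclc, Gclm, Txnrd1, Srxn1 and Gsr, of 38926 gene symbols counted. RNA of whole liver was sequenced from 12 mice, with 1 liver per library and 3 mice in each of 4 groups. Wild-type and Rev-erbα-/- mice, all 12 weeks old and on a 129Ola/C57BL6 background, were killed at ZT8 or at ZT20 (zeitgeber time, in hours after lights on, so that ZT8 fell in the light phase and ZT20 in the dark phase). The knockouts lack functional REV-ERBα (gene symbol Nr1d1) in every tissue, were bred from heterozygous parents and, per the methods of the study, were male. No mouse is stated to have received a drug or an oxidant. This does not make every liver unchallenged, because an acute-phase gene was high in wild-type ZT8 replicates 2 and 3, as given below.

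NRF2, encoded by Nfe2l2, is the transcription factor that raises antioxidant and detoxification genes when cells meet electrophiles or oxidants. In unstressed cells it is held by KEAP1, an adaptor of the CUL3 ubiquitin ligase, and degraded, so that much of its control lies in the protein and is not seen in counts of RNA. Once released, NRF2 pairs with a small MAF protein and binds the antioxidant response element of its target genes, which in liver supply glutathione, reduced thioredoxin and NADPH. REV-ERBα is a clock repressor that peaks in liver during the light phase.

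Between 17641809 and 26060192 reads per liver were counted on genes. Levels are given as CPM, the reads of a gene for each 1000000 reads of its library after TMM scaling, and 3 counts, the smallest level taken as measurable, came to between 0.117 and 0.167 CPM. A total of 14488 genes passed the filter on low counts, including all 8 members. Reads were still assigned to Nr1d1 in the knockouts, at 71.8 ± 8.78 CPM against 100.1 ± 26.9 in the wild type at ZT8 (SD, n = 3), a difference that did not pass the test (adjusted p = 0.143, edgeR), and counts per gene do not show from which exons these reads came. Arntl, a clock gene that REV-ERBα represses, was at 24.2 ± 1.52 CPM in Rev-erbα-/- liver and at 0.652 ± 0.181 in the wild type at ZT8 (adjusted p = 2.23e-12, edgeR). The wild-type ZT8 mice stood apart from each other before any member was considered. The acute-phase gene Saa1 was at 60.8 CPM in replicate 1, 4972 in replicate 2 and 6489 in replicate 3, and between 21.2 and 96.8 in the other 9 livers. Replicate 1 had the highest level of its group in 7 of the 8 members (38.4% of all tested genes) and replicate 3 the lowest in 7 (37.3% of all tested genes). Member differences that involve wild-type liver at ZT8 are therefore also given without single mice of that group where this matters. Without replicate 1, only the mice with high Saa1 remain in that group. Alignments to more than 1 place numbered between 1.76 and 3.28 per counted read at ZT8 and between 1.24 and 1.67 at ZT20, so that library composition differed with time. The part of this in the time effects was not tested.

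The promoter sequences of the members are shown first, because the antioxidant response element is the feature by which these genes are usually grouped. RefSeq promoters on GRCm38.p6 (the build also called mm10), from 250 bases before to 50 bases after the start, were found for 6 of the 8 members, with 3 starts for Txnrd1. Gclc and Gsr had no entry. The core TGACNNNGC, searched on both strands, was present in 4 of these 6 members and in 14.0% of the 27025 genes of the table. Capitals mark the core within 29 bases, written 5′ to 3′ on the strand of the gene.
Nfe2l2: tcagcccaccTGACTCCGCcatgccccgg
Gclm: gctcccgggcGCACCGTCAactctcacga
Txnrd1: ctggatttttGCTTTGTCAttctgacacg
Srxn1: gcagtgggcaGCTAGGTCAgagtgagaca
The first of these lies on the strand of the gene, at chr2:75704885-75704913, and its core begins 240 bases before the start of Nfe2l2. The other three cores read on the opposite strand. The Gclm window is chr3:122245413-122245441, with the core from 134 bases before the start, and the Txnrd1 window is chr10:82859104-82859132, with the core from 92 bases before the start of 1 of its transcripts. The Srxn1 window, chr2:152105542-152105570, holds its core from position 29 after the start. Keap1 and Nqo1 had no match in this window, which says only that these letters are not in it.

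TAGGTCA, the core of the element that REV-ERB monomers bind, was searched in the same way because REV-ERBα is the factor that the knockouts lack. Only this core was searched, not the bases around it that belong to the full element. It was found in 1 of the 6 members, Srxn1, and in 2.97% of all genes of the table. Srxn1 held it in both of the following places, written on the strand of the gene.
Srxn1, 216 bases before the start: gaaatgtgagTAGGTCAtcacacttgg
Srxn1, position 31 after the start: agtgggcagcTAGGTCAgagtgagaca
These windows are chr2:152105298-152105324 and chr2:152105544-152105570, and the second shares bases with the antioxidant response element core shown above. The E-box CACGTG, which the clock activators bind, was in 0 of the 6 members and in 8.09% of all genes. A match of letters is not a measured binding site.

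Levels can be compared between genes only per length of exon. Per kilobase of exon, Gclc was the most abundant member in each group, at 63.9 ± 14.4 CPM per kb in wild-type liver at ZT8 and 112.3 ± 17.1 at ZT20 (SD, n = 3), followed by Gclm at 39.2 ± 0.755 and 42.6 ± 1.49. Nfe2l2, Gsr and Txnrd1 came next in wild-type liver at ZT8, between 21.0 and 21.9 CPM per kb, with ranges that overlapped among the mice. Srxn1 at 14.4 ± 2.76 and Keap1 at 8.45 ± 0.0933 CPM per kb followed in that group, and neither overlapped its neighbours. Nqo1 was the lowest, at 2.83 ± 0.960 CPM per kb in that group and 2.60 ± 0.143 in wild-type liver at ZT20.

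**Figure D1:**
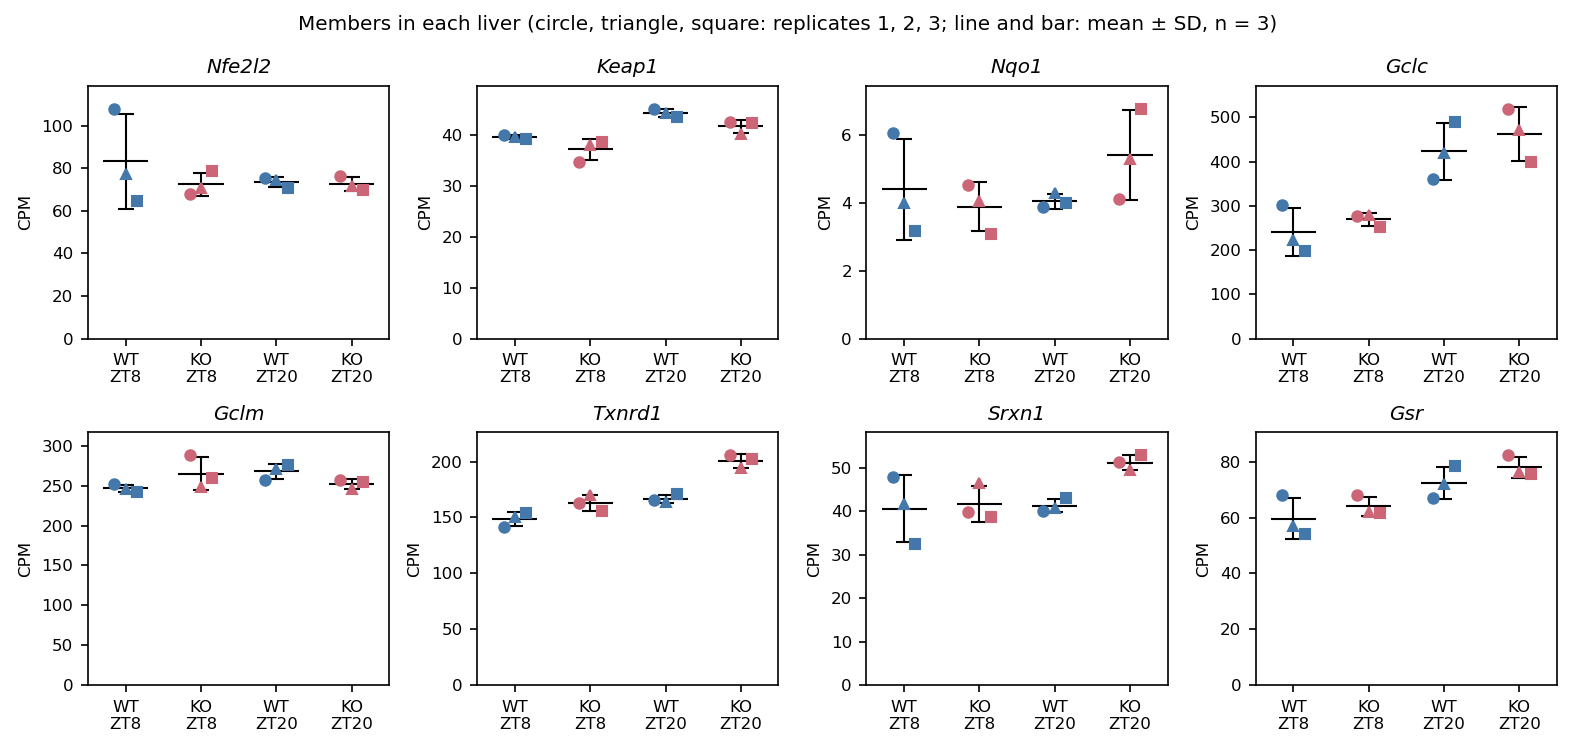
Level of each of the 8 members in CPM (y axes from 0, 1 panel per gene) in the 12 livers by genotype and time, with symbols for replicates 1 to 3 and lines and bars for the mean ± SD of 3 mice. Gclc lies between 361 and 519 CPM in the ZT20 livers and between 197 and 302 in the ZT8 livers, and Txnrd1 lies between 194 and 205 CPM in Rev-erbα-/- liver at ZT20, above the other 9 livers.

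The first question was which members differed between genotypes. At ZT8, when REV-ERBα is normally abundant, 0 of the 8 members passed the threshold (adjusted p under 0.05, edgeR's quasi-likelihood test with Benjamini-Hochberg adjustment over all tested genes), against 8.45% of all tested genes. None had an unadjusted p under 0.05, and DESeq2 also called 0. At ZT20, 1 of the 8 passed, against 3.63% of all tested genes: Txnrd1 rose in Rev-erbα-/- liver. The median log2 fold change of the members was 0.07 at ZT8 and 0.12 at ZT20, against 0.00 over all tested genes at both times. The groups of 3 mice did not overlap in 2 members at ZT8, against 25.6% of all tested genes, and in 4 members at ZT20, against 22.5%.

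The second question was which members differed between times. From ZT8 to ZT20, 2 members rose in the wild type (Gclc and Gsr) and 3 in Rev-erbα-/- liver (Gclc, Gsr and Txnrd1), and 0 fell in either. All tested genes passed in 27.7% of cases in the wild type (13.8% higher at ZT20) and in 17.5% in Rev-erbα-/- liver (8.79% higher). The median log2 change of the members was 0.14 in the wild type and 0.29 in Rev-erbα-/- liver, against 0.00 and 0.01 over all tested genes. Mice at ZT8 and ZT20 did not overlap in 4 members in the wild type, against 42.3% of all tested genes, and in 5 members in Rev-erbα-/- liver, against 35%. In each of these 9 cases, the ZT20 mice were the higher group. These comparisons share mice with the genotype comparisons, and the values of each are given side by side below.

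**Figure D2:**
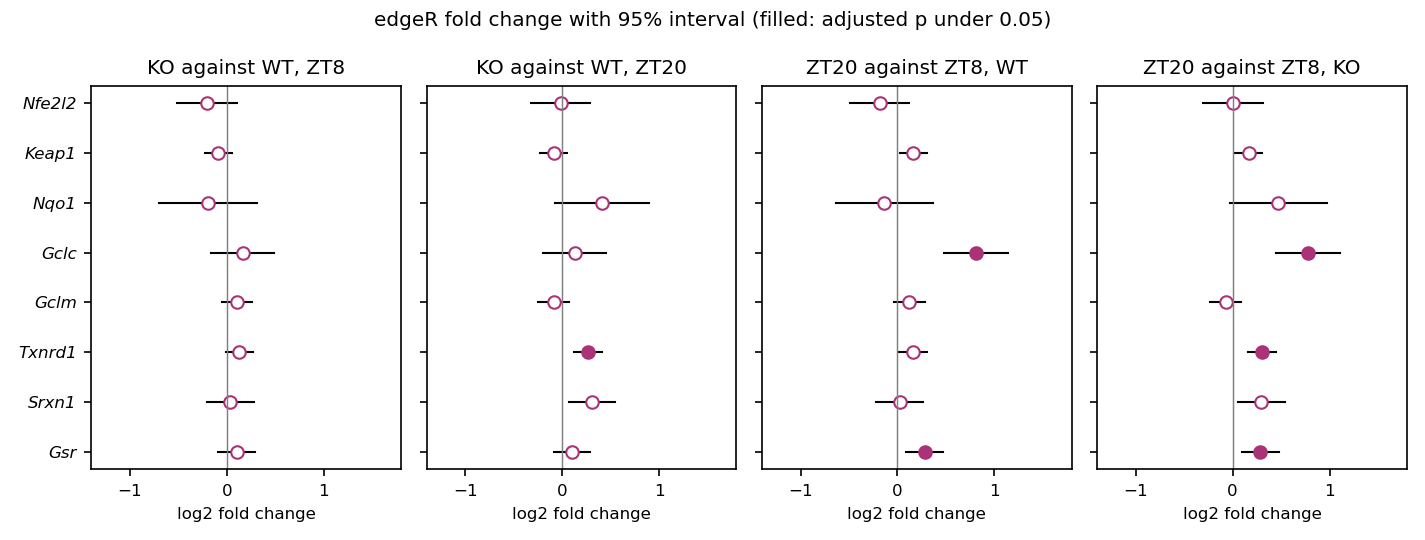
Log2 fold change with its 95% confidence interval (x axis) for each member (y axis) in the genotype comparisons at ZT8 and ZT20 and in the time comparisons within each genotype, from edgeR, with filled symbols for an adjusted p under 0.05. No member is filled at ZT8, Txnrd1 (0.27) is the one filled at ZT20, and all filled time effects lie above 0.

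Nfe2l2 (chromosome 2, 75675513 to 75704641, minus strand, on mm10) encodes NRF2 itself. Its level in wild-type liver at ZT8 was 108, 77.3 and 64.6 CPM in replicates 1 to 3, and in Rev-erbα-/- liver at ZT8 it was 68.0, 70.6 and 78.6. At ZT20 it was 75.2, 74.6 and 70.6 CPM in the wild type and 76.3, 71.5 and 69.9 in Rev-erbα-/- liver. The 9 livers outside the wild-type ZT8 group thus lay between 68.0 and 78.6 CPM. One mouse, wild-type ZT8 replicate 1, was far above all others, and its Saa1 level lay in the range of those 9 livers. Between genotypes at ZT8, the log2 fold change was -0.20 (95% interval -0.51 to 0.10, adjusted p = 0.427, edgeR), and without that mouse it was 0.03. The wild-type ZT8 group then holds only replicates 2 and 3, with Saa1 at 4972 and 6489 CPM. At ZT20, the log2 fold change was -0.02 (-0.32 to 0.29, adjusted p = 0.981, edgeR). The log2 change with time did not pass the test in either genotype (intervals -0.49 to 0.12 in the wild type and -0.30 to 0.31 in Rev-erbα-/- liver). Without replicate 3 of the wild-type ZT8 mice, the wild-type time effect passed with a log2 change of -0.33 (adjusted p = 0.0470, edgeR).

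Keap1 (chromosome 9, 21229730 to 21239361, minus strand), the adaptor that delivers NRF2 for degradation, differed little among the mice of a group. At ZT8, wild-type livers had 40.1, 39.7 and 39.2 CPM and knockout livers 34.8, 38.1 and 38.7, and the levels were 45.2, 44.4 and 43.6 against 42.6, 40.3 and 42.4 in the same order at ZT20. The 3 knockouts were below the 3 wild-type mice at both times, by a log2 fold change of -0.09 at ZT8 and -0.09 at ZT20, and neither difference passed the test (adjusted p = 0.437 and 0.601, edgeR). Averaged over both times, the 95% interval ran from -0.19 to 0.01. Keap1 was at 0.16 (log2) more at ZT20 than at ZT8 in the wild type and 0.17 more in Rev-erbα-/- liver, without overlap between times, with adjusted p = 0.0748 and 0.0958 (edgeR). An antisense transcript, Gm16754, shares 510 exon bases with Keap1. Reads were counted without strand, and in union mode a read in bases shared by both genes goes to neither, so that the level of Keap1 leaves out those reads, whose number is not known here. The ratio of Nfe2l2 to Keap1 counts was 2.10 ± 0.536 in the wild type and 1.95 ± 0.0885 in Rev-erbα-/- liver at ZT8, and 1.65 ± 0.0321 and 1.74 ± 0.0790 at ZT20 (SD, n = 3). The range of the wild-type ZT8 mice, 1.65 to 2.69, covered all but 1 of the other 9 livers.

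Gclc and Gclm encode the catalytic and the modifier subunit of glutamate-cysteine ligase, the rate-limiting enzyme of glutathione synthesis. Gclc (chromosome 9, 77754535 to 77794485, plus strand) was at 302, 223 and 197 CPM in wild-type and at 276, 279 and 253 in Rev-erbα-/- liver at ZT8. At ZT20, it reached 361, 419 and 489 CPM in wild-type livers and 519, 471 and 398 in Rev-erbα-/- liver. Every ZT20 liver was above every ZT8 liver, while the genotypes overlapped at both times. Gclc rose 1.76-fold from ZT8 to ZT20 in the wild type (95% interval 1.40 to 2.21, adjusted p = 0.00142, edgeR) and 1.72-fold in Rev-erbα-/- liver (1.37 to 2.16, adjusted p = 0.00357, edgeR). Both calls held under each alternative and without any single mouse. The genotype difference was a log2 fold change of 0.16 at ZT8 (-0.16 to 0.49) and 0.13 at ZT20 (-0.20 to 0.46), and the difference between these effects was 0.03 (standard error 0.215, adjusted p = 0.952, edgeR).

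Gclm (chromosome 3, 122245557 to 122270732, plus strand) showed no such rise. Its levels were 252, 246 and 242 CPM in the wild type and 288, 248 and 259 in Rev-erbα-/- liver at ZT8, and 258, 271 and 276 against 257, 245 and 254 at ZT20. The 12 livers thus stayed within 242 and 288 CPM. The log2 change with time was 0.12 in the wild type (-0.04 to 0.28) and -0.07 in Rev-erbα-/- liver (-0.23 to 0.09), with adjusted p = 0.256 and 0.573 (edgeR). At ZT20 the 3 knockouts were below the 3 wild-type mice (log2 fold change -0.09, adjusted p = 0.676, edgeR), and at ZT8 the log2 fold change was 0.10 with overlap. Gclm shares 296 exon bases with Gm17494 on the opposite strand and 244 with the pseudogene Gm6061 on the same strand, and reads there are left out of its counts, which touches its level per kb and the ratio below.

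The counts of both subunits within a liver can be set against each other without any scaling. The ratio of Gclc to Gclm counts was 1.20, 0.908 and 0.814 in the wild-type and 0.960, 1.13 and 0.976 in the Rev-erbα-/- mice at ZT8. At ZT20, it was 1.40, 1.54 and 1.77 in the wild type and 2.02, 1.92 and 1.56 in the knockouts. All 6 dark-phase livers were above all 6 light-phase livers, with means of 0.973 and 1.02 at ZT8 and of 1.57 and 1.83 at ZT20, and the genotypes overlapped at each time. Because these are counts of genes of different length, the ratio is not a ratio of transcript numbers.

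**Figure D3:**
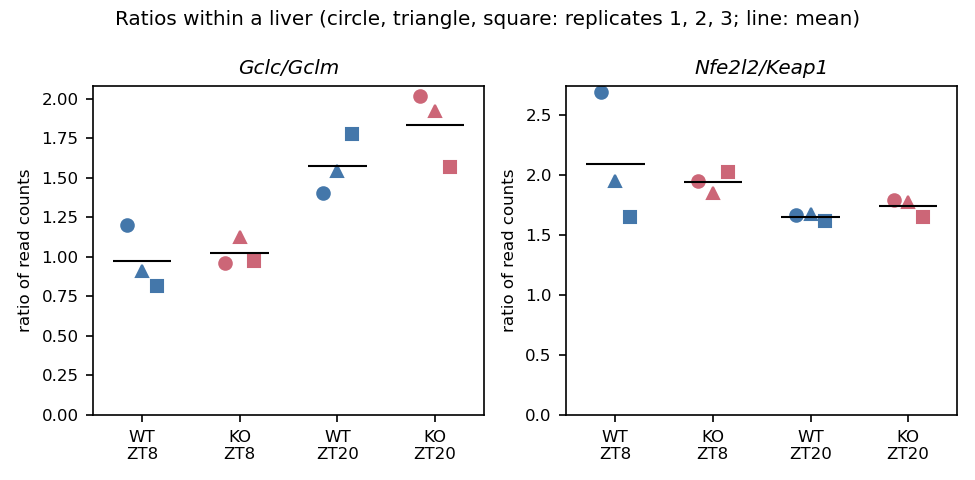
Ratio of read counts within each liver (y axes from 0) for Gclc over Gclm and for Nfe2l2 over Keap1, by genotype and time, with symbols for replicates 1 to 3 and a line for the mean. The Gclc over Gclm ratio lies between 0.814 and 1.20 at ZT8 and between 1.40 and 2.02 at ZT20, and the Nfe2l2 over Keap1 ratio lies between 1.65 and 2.69 in the wild type at ZT8, a range that covers all but 1 of the other 9 livers.

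Gsr encodes glutathione reductase, which returns oxidised glutathione to its reduced form with NADPH. Gsr (chromosome 8, 33652523 to 33698163, plus strand) was at 68.0, 56.9 and 54.1 CPM in wild-type and at 68.1, 62.1 and 61.8 in Rev-erbα-/- liver at ZT8, and at 67.1, 72.0 and 78.5 against 82.3, 76.3 and 75.5 at ZT20. Its time course resembled that of Gclc in a smaller measure. Gsr rose 1.21-fold in the wild type (1.07 to 1.38, adjusted p = 0.0281, edgeR), where replicate 1 of the ZT8 mice overlapped the ZT20 mice, and 1.22-fold in Rev-erbα-/- liver (1.07 to 1.39, adjusted p = 0.0367, edgeR), where the times did not overlap. These small changes passed only in part when mice were left out, in 8 of 12 such fits for the wild type and in 6 of 12 for Rev-erbα-/- liver. The lost calls had adjusted p of up to 0.135 and 0.120, and with library size alone they were 0.130 and 0.102 (edgeR). Genotype differences were 0.10 at ZT8 and 0.11 at ZT20 on the log2 scale (intervals -0.09 to 0.29 and -0.08 to 0.29).

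Txnrd1 encodes the cytosolic thioredoxin reductase. Txnrd1 (chromosome 10, 82833951 to 82897712, plus strand) was at 142, 150.2 and 154 CPM in wild-type and at 163, 170.0 and 155 in Rev-erbα-/- liver at ZT8. At ZT20, it had 165, 163 and 171 CPM in wild-type livers and 205, 194 and 202 in Rev-erbα-/- liver. The knockouts were above the wild type at both times without overlap, and the 3 Rev-erbα-/- mice at ZT20 were above all others. The genotype effect was 1.09-fold at ZT8 (0.990 to 1.21, adjusted p = 0.263, edgeR) and 1.20-fold at ZT20 (1.09 to 1.33, adjusted p = 0.0398, edgeR). Averaged over both times it was 1.15-fold (1.07 to 1.23, adjusted p = 0.0212, edgeR), the 1 call among the 8 members in that comparison, against 6.34% of all tested genes. The difference between the genotype effects at both times did not pass (log2 -0.14, standard error 0.0953, adjusted p = 0.462, edgeR). In that test 0 of the 8 members passed in edgeR or DESeq2, with 0 at an unadjusted p under 0.05, against 5.88% of all tested genes.

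The call of Txnrd1 at ZT20 was close to the threshold. It was lost without any one of the 6 mice at ZT20, without wild-type ZT8 replicate 2 and without Rev-erbα-/- ZT8 replicate 2, while the log2 fold change stayed between 0.25 and 0.29 and the adjusted p was at most 0.177 (edgeR). The averaged call was lost in 3 of the 12 fits that left out 1 mouse, namely replicate 2 of the wild type at ZT8, of Rev-erbα-/- at ZT8 or of the wild type at ZT20 (adjusted p up to 0.0680, edgeR). With time, Txnrd1 rose 1.23-fold in Rev-erbα-/- liver (1.12 to 1.36, adjusted p = 0.00648, edgeR), and this held in each alternative fit and without any single mouse. In the wild type, the change was 1.12-fold (1.01 to 1.24, adjusted p = 0.0866, edgeR), with the ZT20 mice above the ZT8 mice.

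Srxn1 encodes sulfiredoxin, which repairs over-oxidised peroxiredoxins. Srxn1 (chromosome 2, 152105516 to 152111376, plus strand) was at 47.8, 41.5 and 32.3 CPM in wild-type and at 39.9, 46.4 and 38.6 in Rev-erbα-/- liver at ZT8, and at 40.0, 40.8 and 43.0 against 51.2, 49.4 and 52.8 at ZT20. The 3 Rev-erbα-/- livers at ZT20 were above all other livers, while the wild-type ZT8 mice spread over more than the whole wild-type ZT20 range. At ZT20, the genotype difference was 1.24-fold (1.05 to 1.46, unadjusted p = 0.0149, adjusted p = 0.182, edgeR), which did not pass. A fit on only the 6 mice at ZT20 gave adjusted p = 0.0196 (edgeR). Without replicate 1 of the wild-type ZT8 mice, the effect averaged over both times passed (log2 0.24, adjusted p = 0.0402, edgeR), against log2 0.17 (adjusted p = 0.239) with all mice. The rise with time in Rev-erbα-/- liver was 1.23-fold (1.04 to 1.45, adjusted p = 0.0853, edgeR), and it passed without replicate 1 or without replicate 3 of the wild-type ZT8 mice (adjusted p = 0.0341 and 0.0225, edgeR) and with only the 6 Rev-erbα-/- mice (adjusted p = 0.0382, edgeR). In the wild type it was 1.02-fold (0.860 to 1.20).

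Nqo1 (chromosome 8, 107388225 to 107403206, minus strand) encodes a quinone reductase that is among the best known NRF2 targets. It was low in each liver, with 62 to 152 reads. At ZT8, wild-type livers had 6.05, 3.99 and 3.15 CPM and knockout livers 4.52, 4.06 and 3.09, and at ZT20 the levels were 3.86, 4.29 and 3.98 against 4.11, 5.30 and 6.76. The groups overlapped in each comparison. The genotype difference was 0.874-fold at ZT8 (0.615 to 1.24) and 1.33-fold at ZT20 (0.947 to 1.87, adjusted p = 0.448, edgeR), and these wide intervals do not exclude differences as large as those of Txnrd1 or Srxn1.

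**Figure D4:**
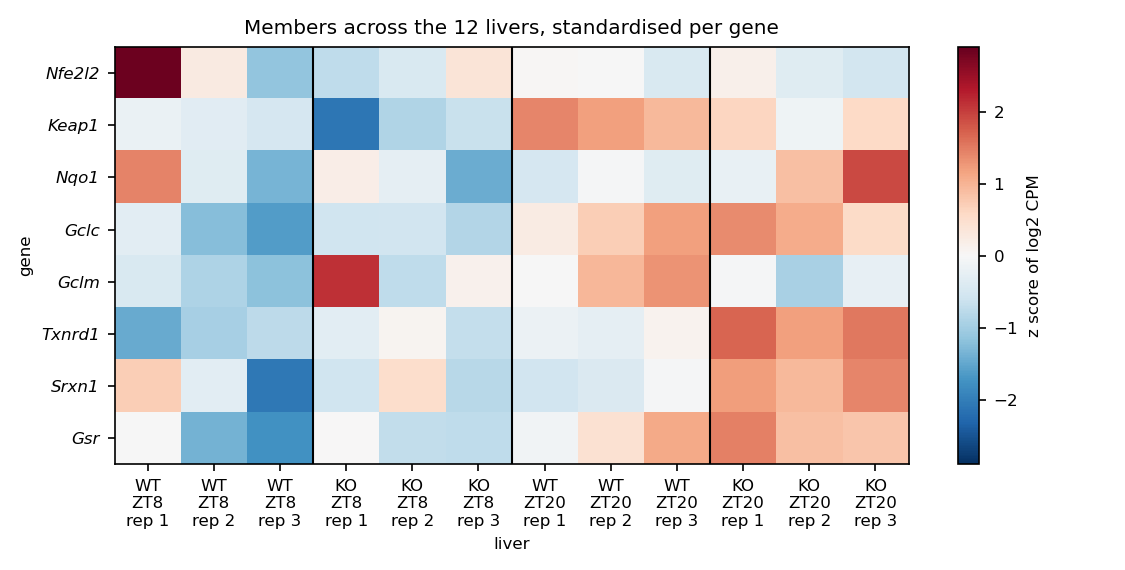
Log2 CPM of the 8 members (rows) in the 12 livers (columns), standardised to mean 0 and SD 1 within each gene, with red for above and blue for below the mean of the gene. Gclc and Gsr run in parallel, replicate 1 of the wild-type ZT8 mice is the highest of all 12 for Nfe2l2 with a z score of 2.85, and Srxn1 and Txnrd1 are highest in the 3 Rev-erbα-/- mice at ZT20.

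The likeness of the profiles over the 12 livers was measured as the root mean square difference of standardised log2 CPM, for which 0 is an identical shape, as a description. The closest pair of members was Gclc and Gsr at 0.263, and Gsr was also the second nearest of all 14488 tested genes to Gclc, after Lasp1 at 0.243. The next pair was Nqo1 with Srxn1 at 0.657, and the farthest was Nfe2l2 with Txnrd1 at 1.62. Gclc and Gclm, subunits of the same enzyme, were at 1.13. The 2 tested genes nearest to each of the other members were Car7 and D11Wsu47e for Nfe2l2, Kank1 and Lcn12 for Keap1, Plekhb1 and Map3k15 for Nqo1, Tmem106b and Pcnp for Gclm, Oxsm and Zfp39 for Txnrd1, Dhrs1 and Spag4 for Srxn1, and Gclc and Nexn for Gsr, at distances from 0.258 for Kank1 to 0.517 for D11Wsu47e.

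The members were set beside lists of other genes of the pathway, which were chosen with earlier results of these data known. Of all tested genes, 8.45% passed between genotypes at ZT8 and 3.63% at ZT20. With time, 27.7% passed in the wild type and 17.5% in Rev-erbα-/- liver. The counts of each list stand beside these shares. Among 10 partners and regulators of NRF2, 3 were lower in Rev-erbα-/- liver at ZT8 (Maff, Bach1 and Btrc) and 1 was higher at ZT20 (Btrc). Maff, a small MAF protein that can pair with NRF2, had 3.70, 4.23 and 4.07 CPM in wild-type livers and 1.04, 0.667 and 1.03 in knockout livers at ZT8. It fell by 2.12 on the log2 scale (adjusted p = 1.9e-05, edgeR). Bach1, a repressor that competes with NRF2 for the antioxidant response element, was at 52.9, 65.7 and 76.7 CPM against 43.2, 40.1 and 29.2 at ZT8, a fall to 0.576 times the wild type (adjusted p = 0.00853, edgeR). The wild-type mouse nearest to the knockouts was replicate 1, the one with low Saa1. The Bach1 call held in all 12 fits that left out 1 mouse (adjusted p up to 0.0363, edgeR). It held in 6 of 7 other alternatives, and with only the 6 livers compared adjusted p was 0.0523 (edgeR). Btrc, a substrate adaptor of another ubiquitin ligase, was 0.796 times the wild type at ZT8 and 1.25 times at ZT20 (adjusted p = 0.0167 and 0.0333, edgeR). The Btrc call held in 9 of 12 fits that left out 1 mouse at ZT8 and in 5 of 12 at ZT20, with adjusted p up to 0.0779 and 0.145 (edgeR). Mafk, another small MAF protein, was lower at ZT20 than at ZT8 in the wild type (0.691 times, adjusted p = 0.00414, edgeR) and in Rev-erbα-/- liver (0.700 times, adjusted p = 0.00933, edgeR). With time, 1 of the 10 rose and 4 fell in the wild type, and 2 rose and 2 fell in Rev-erbα-/- liver. The median log2 fold change of the list was -0.12 at ZT8 and -0.02 at ZT20 between genotypes.

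Of 16 other glutathione and thioredoxin genes, 13 could be tested, and Ggt1, Slc7a11 and Gpx2, with 0 to 4 reads per liver, could not. At ZT8 in Rev-erbα-/- liver, 1 rose (Ggct, an enzyme of glutathione breakdown, 1.47-fold, adjusted p = 0.0255, edgeR) and 1 fell (Glrx, encoding glutaredoxin, 0.643 times, adjusted p = 0.0104, edgeR). For Glrx at ZT8, wild-type replicates 1 to 3 had 25.6, 35.3 and 39.6 CPM, and the highest knockout level was 22.2. Replicate 1, the wild-type ZT8 mouse with low Saa1, was thus the nearest to the knockouts, as for Bach1. At ZT20, 0 of the 13 passed in edgeR or DESeq2, and 0 had an unadjusted p under 0.05. Without wild-type ZT8 replicate 2, 0 passed at ZT8 either, and without replicate 1 of that group 3 did. With time, 1 rose and 1 fell in each genotype: Ggct (1.54-fold) and Gss, encoding glutathione synthetase (0.858 times), in the wild type, and Txnrd2 (1.25-fold) and Prdx3 (0.797 times), both of mitochondria, in Rev-erbα-/- liver (adjusted p between 0.00394 and 0.0348, edgeR). Of the 12 fits that left out 1 mouse, the fall of Gss, the enzyme after glutamate-cysteine ligase in glutathione synthesis, held in 7 (adjusted p up to 0.148, edgeR), the rise of Ggct at ZT8 in 9 (up to 0.119) and the fall of Glrx in 11 (up to 0.0516).

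Among 9 other enzymes of NADPH supply and the pentose phosphate pathway, 0 passed between genotypes at either time in edgeR or DESeq2, and 0 had an unadjusted p under 0.05. Without wild-type ZT8 replicate 1, 1 passed at ZT8 and 0 at ZT20. With time, 4 rose in the wild type (Pgd, Me1, Idh1 and Tkt) and 2 in Rev-erbα-/- liver (Pgd and Idh1), and 0 fell. Of all tested genes, 27.7% and 17.5% passed in these comparisons, in either direction. In the wild type the count was 2 without ZT8 replicate 2 and 5 without ZT8 replicate 1. Pgd, encoding phosphogluconate dehydrogenase, rose 2.02-fold in the wild type and 1.91-fold in Rev-erbα-/- liver (adjusted p = 2.8e-05 and 0.000134, edgeR), to 78.6 ± 12.6 and 88.3 ± 4.21 CPM at ZT20 (SD, n = 3). Me1, encoding cytosolic malic enzyme, rose 2.49-fold in the wild type (1.49 to 4.16, adjusted p = 0.0165, edgeR), with wild-type ZT20 mice as far apart as 282, 209 and 113 CPM. Idh1, encoding cytosolic isocitrate dehydrogenase, rose 1.40-fold in the wild type and 1.26-fold in Rev-erbα-/- liver (adjusted p = 0.00327 and 0.0401, edgeR). The call in Rev-erbα-/- liver held in 4 of 12 fits that left out 1 mouse (adjusted p up to 0.136, edgeR). Tkt, encoding transketolase, rose 1.32-fold in the wild type (adjusted p = 0.0313, edgeR), which held in 9 of 12 such fits (adjusted p up to 0.147), as the rise of Me1 did in 10 of 12 (up to 0.0603). In the other alternatives, Tkt held in 4 of 7 (adjusted p up to 0.0776) and Me1 in 6 of 7 (up to 0.0950). The median log2 change of the list with time was 0.39 in the wild type and 0.24 in Rev-erbα-/- liver.

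Among 20 detoxification genes that NRF2 can induce, 5 rose in Rev-erbα-/- liver at ZT8, 1 rose at ZT20 and 0 fell at either time. Of all tested genes, 8.45% passed at ZT8 and 3.63% at ZT20, so that the count at ZT20 was near that share. The counts depended on the wild-type ZT8 mice: without replicate 1 of that group 6 passed at ZT8 and 6 at ZT20, and without replicate 2 it was 0 and 0. DESeq2 called 6 and 4. The median log2 fold change was 0.10 at ZT8 and 0.29 at ZT20. Ephx1, encoding microsomal epoxide hydrolase, was at 318 ± 86.4 CPM in the wild type and 476 ± 66.7 in Rev-erbα-/- liver at ZT8, and at 360.4 ± 28.3 and 556 ± 27.0 at ZT20 (SD, n = 3). At ZT8, the wild-type mice were at 409, 310 and 236 CPM and the knockouts at 407, 479 and 541, so that wild-type replicate 1 overlapped the knockouts. The Ephx1 call at ZT8 held in 2 of 12 fits that left out 1 mouse and in 3 of 7 other alternatives. At ZT20, the call held in 4 of 12 and in 4 of 7. Averaged over both times, Ephx1 rose 1.52-fold (adjusted p = 0.00661, edgeR), which held in all 12 fits that left out 1 mouse. Gstm3, a glutathione transferase, rose 1.94-fold averaged over both times (1.5 to 2.51, adjusted p = 0.0095, edgeR), from 30.6 ± 12.0 to 59.5 ± 4.95 CPM at ZT8. Its wild-type ZT8 mice were at 43.6, 28.3 and 19.9 CPM, with the highest level again in replicate 1. Gstm4 rose 1.45-fold and Ugdh, which makes the UDP-glucuronic acid for glucuronidation, rose 1.27-fold averaged over both times (adjusted p = 0.0148 and 0.00983, edgeR). Gstm1 was the fifth of the 5 genes of the list that passed in the averaged comparison, with 1.41-fold, against 6.34% of all tested genes passing. Since mouse Gstm genes are similar in sequence and reads with several places were not counted, their values are uncertain. With time, Cbr1, encoding a carbonyl reductase, rose 1.53-fold in the wild type and 1.43-fold in Rev-erbα-/- liver (adjusted p = 6.6e-05 and 0.000698, edgeR). Abcc2, encoding a canalicular export pump, fell to 0.568 times in the wild type (adjusted p = 0.000164, edgeR) and Aox1, encoding aldehyde oxidase, rose 1.52-fold in Rev-erbα-/- liver (adjusted p = 0.0489, edgeR). The Aox1 call held in 3 of 12 fits that left out 1 mouse and in 4 of 7 other alternatives (adjusted p up to 0.153 and 0.123, edgeR). In the wild type, 2 of the 20 passed with time, against 27.7% of all tested genes, and 8 passed without ZT8 replicate 1. In Rev-erbα-/- liver, 2 of the 20 passed with time, against 17.5% of all tested genes.

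Of 4 scavengers of superoxide and peroxide, 0 passed between genotypes in edgeR or DESeq2, with 0 at an unadjusted p under 0.05 at either time, and 1 passed at ZT8 without wild-type ZT8 replicate 1. Sod1 and Sod2, encoding the cytosolic and the mitochondrial superoxide dismutase, rose 1.27-fold and 1.20-fold with time in the wild type (adjusted p = 0.0135 and 0.0103, edgeR), and Sod1 rose 1.25-fold in Rev-erbα-/- liver (adjusted p = 0.0268, edgeR). The Sod1 calls held in 11 and 8 of 12 fits that left out 1 mouse (adjusted p up to 0.0652 and 0.110, edgeR).

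**Figure D5:**
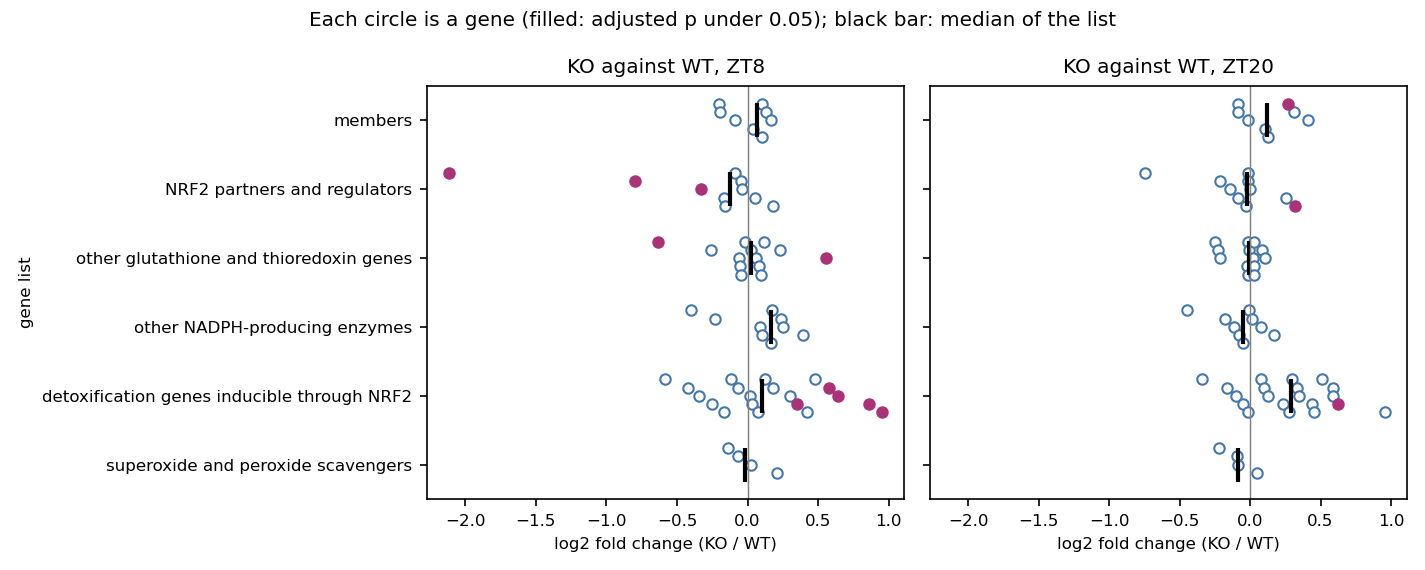
Log2 fold change of Rev-erbα-/- against wild-type liver (x axes, on the same scale) at ZT8 and at ZT20 for each tested gene of the members and of the 5 other lists (y axis), with filled circles for an adjusted p under 0.05 and a black bar for the median of the list. The median of the members lies at 0.07 and 0.12, that of the detoxification genes at 0.10 and 0.29, and Maff is the filled circle at -2.12 among the partners and regulators.

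These are levels of RNA in whole liver, in which fewer cells of a type and less RNA per cell cannot be told apart. The summed level of 5 hepatocyte markers was between 48324 and 70543 CPM in the wild type and between 58244 and 84515 in Rev-erbα-/- liver at ZT8, and between 91961 and 102265 and between 80942 and 89480 at ZT20. Of these markers, 3 of 5 rose with time in the wild type, against 27.7% of all tested genes passing in either direction. In Rev-erbα-/- liver, 0 rose and 1 fell, against 17.5% of all tested genes passing. There, 3 of the 5 had higher values at ZT20 (median log2 change 0.09). Between genotypes at ZT8, beside the calls on the lists of partners, glutathione and detoxification genes, all 5 had values above the wild type in Rev-erbα-/- liver (median log2 fold change 0.42), of which 1 rose in edgeR and 4 in DESeq2, and without wild-type ZT8 replicate 2 it was 0 in edgeR. At ZT20, 0 of the 5 passed between genotypes in edgeR or DESeq2, with 0 at an unadjusted p under 0.05. Of all tested genes, 3.63% passed there in edgeR. The summed level of 6 Kupffer cell markers was between 269.5 and 433 CPM in the wild type and between 241 and 301 in Rev-erbα-/- liver at ZT8, and between 239 and 295 and between 283 and 336 at ZT20. At ZT8, all 6 had values below the wild type in Rev-erbα-/- liver (median log2 fold change -0.48). Of these, 0 passed in edgeR (3 at an unadjusted p under 0.05, 2 in DESeq2, and 3 in edgeR without wild-type ZT8 replicate 1). At ZT20, 0 passed between genotypes in edgeR (2 at an unadjusted p under 0.05, and 1 in DESeq2), with a median of 0.17, and 2 fell with time in the wild type. The neutrophil marker Ly6g was at 0 in all livers. The 6 leukocyte markers together were between 12.4 and 21.7 CPM in the wild type and between 11.2 and 14.9 in Rev-erbα-/- liver at ZT20, with overlap. Of the 4 leukocyte markers that could be tested, all had values below the wild type at ZT20 (median log2 fold change -1.16), and 0 passed in edgeR (2 at an unadjusted p under 0.05, and 2 in DESeq2). At ZT8, 3 of the 4 had values above the wild type (median log2 fold change 0.19), and 0 passed in edgeR or DESeq2. Of 5 cholangiocyte markers, 1 rose in Rev-erbα-/- liver at ZT8, against 8.45% of all tested genes passing, and 1 passed in each fit that left out 1 mouse. With time, 2 rose in the wild type and 1 in Rev-erbα-/- liver (edgeR), against 27.7% and 17.5% passing. Their summed level was between 37.9 and 94.7 CPM in the wild type and between 53.6 and 69.8 in Rev-erbα-/- liver at ZT8. At ZT20, it was between 41.9 and 43.9 and between 39.7 and 63.7. Of 5 stellate and fibroblast markers, 0 passed between genotypes at either time, 1 fell averaged over both times, and 1 passed for the difference between the effects. With time, 1 fell in the wild type and 1 rose in Rev-erbα-/- liver. The difference between the genotype effects also passed for 1 of 5 hepatocyte and 1 of 6 Kupffer cell markers, against 5.88% of all tested genes (edgeR). For each of these 3 lists it was 0 without wild-type ZT8 replicate 2. Of 5 endothelial markers, 0 passed. The part of these cell types in the results of the members and lists was not tested.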

How the data were processed

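Poly(A) RNA of 12 mouse livers was sequenced on an Illumina instrument. Per the methods of the study and the labels, the authors aligned the reads to mm10 with TopHat, counted them with HTSeq (in union mode, from an alignment quality of 10, ignoring strand) and used SAMtools and DESeq2 1.6.3. Aligner and counter versions and the annotation release are not given in the sources used here. The deposited values are raw counts, whole numbers for 38926 gene symbols and 5 summary lines (left out here), without normalization.

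Genes passing filterByExpr (14488) were fitted with TMM factors and 4 group means over all 12 livers in edgeR 4.0.16 (glmQLFit with robust estimation, glmQLFTest; R 4.3.3, limma 3.58.1), with Benjamini-Hochberg adjustment within each contrast and a threshold of 0.05. Intervals are at 95%. The biological coefficient of variation was 0.123. Replicates differed beyond counting noise (chi-square per degree of freedom 7.60 to 142), and were taken as 3 mice per group. Groups and replicate numbers came from the labels. The fit was tested on simulated data. Alternatives were DESeq2 1.42.0, RLE factors, library size alone, no filter, at least 10 counts in every liver, the 6 livers compared, the replicate number as a block, and leaving out each liver.

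The members, the gene lists and the tests were chosen with earlier results of these data known. All 8 members described are named (a further gene of the group is not reported here), and of each list up to 4 called genes with the smallest adjusted p over the genotype contrasts and up to 4 over the time contrasts, plus, per member, the 2 genes of the most similar profile (log2 CPM with a prior count of 2). Gstm1 lies outside this rule and was named after its value was seen. Adgre1 was matched by an older symbol. Positions and exon lengths are from GENCODE M21 (GRCm38, the same build as mm10), and promoters are from RefSeq GRCm38.p6 (Python 3.11.15, pandas 2.3.3, matplotlib 3.10.9).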

Additional observations from a re-analysis of the deposited data

Results flagged for a closer look

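For 3 genes of the lists, the genotype effect at ZT8 differed from that at ZT20 by the test of the difference itself (edgeR's quasi-likelihood interaction test with Benjamini-Hochberg adjustment, 3 mice per group). No member passed this test in edgeR. For Maff, the effect at ZT8 minus that at ZT20 was -1.38 on the log2 scale (adjusted p = 0.0176), with 4.00 ± 0.273 CPM in the wild type and 0.911 ± 0.212 in Rev-erbα-/- liver at ZT8, and 1.40 ± 0.179 and 0.834 ± 0.0698 at ZT20 (SD, n = 3). Without single mice, this call was lost in 2 of 12 fits. For Btrc, the difference was -0.65 (adjusted p = 0.00238, edgeR), with 20.01 ± 0.691 against 15.9 ± 0.712 CPM at ZT8 and 15.3 ± 0.324 against 19.1 ± 1.07 at ZT20, so that the order of the genotypes turned between the times, and it passed in all 12 fits without a mouse. For Ggct, it was 0.80 (adjusted p = 0.0254, edgeR), with 5.45 ± 0.534 against 8.00 ± 0.831 CPM at ZT8 and 8.39 ± 1.42 against 7.06 ± 0.424 at ZT20, and it passed in 5 of 12 such fits.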

How the results depend on the processing

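At ZT20, 0 members in place of 1 passed with library size alone, with no filter on low counts and with the replicate block, where Txnrd1 had adjusted p = 0.0574, 0.0623 and 0.0629 (edgeR), and 2 (Txnrd1 and Srxn1) passed with only the 6 livers compared. With time in the wild type, 1 member (Gclc) in place of 2 passed with library size alone and with only the 6 livers compared. In Rev-erbα-/- liver, 2 in place of 3 passed with time with library size alone and 4 with only the 6 livers compared. Leaving out 1 mouse at a time gave 0 to 0 members at ZT8, 0 to 1 at ZT20, 0 to 2 averaged over both times, 0 to 0 for the interaction, 1 to 2 with time in the wild type and 2 to 4 with time in Rev-erbα-/- liver. Over all genes, the calls at ZT8 went from 542 without replicate 2 to 1811 without replicate 1 of the wild-type ZT8 mice, against 1224 with all mice. The sign of some small, uncalled effects turned (log2). Gclm averaged over both times was -0.0033 with library size alone, Gsr in the interaction 0.0010 with the replicate block, Srxn1 with time in the wild type -0.0462 with library size alone, and Nfe2l2 with time in Rev-erbα-/- liver -0.000517 in DESeq2, -0.0293 with library size alone and -0.00285 with the block. Leaving out mice gave ranges across 0 for Nfe2l2 at ZT8 (-0.355 to 0.0252), at ZT20 (-0.0545 to 0.0094), averaged (-0.19 to 0.0067), in the interaction (-0.338 to 0.0369) and with time in the wild type (-0.335 to 0.0388) and in Rev-erbα-/- liver (-0.0370 to 0.0668). They did so for Nqo1 at ZT8 (-0.38 to 0.12) and with time in the wild type (-0.32 to 0.17), for Srxn1 at ZT8 (-0.10 to 0.17) and with time in the wild type (-0.11 to 0.15), for Gclm averaged (-0.0232 to 0.0318), and in the interaction for Keap1 (-0.0312 to 0.0353), Gclc (-0.0947 to 0.221) and Gsr (-0.0766 to 0.0914). The cause was not tested. Same-numbered livers did not deviate together over all tested genes (18 pairs, correlations from -0.0832 to 0.0738, 0 over 0.1). A pairing that touches few genes could not be seen in this way. Nqo1 rested on 62 to 152 reads per liver, and the wide intervals of its changes leave its small differences unresolved with 3 mice per group.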
